A study of Mus musculus with 2 samples.

Results

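Fgf14, Kcnd2, Ntrk3, Ntm, Cabcoco1 and Gmpr were examined in single-nucleus RNA-seq (snRNA-seq) of mouse interscapular brown adipose tissue (BAT). These 6 of the 32285 genes in the count matrices were matched by symbol. They had been chosen because their UMI counts (unique molecular identifiers, each standing for 1 captured RNA molecule) were high in WT adipocyte nuclei and close to 0 in KO adipocyte nuclei. The size of that difference is therefore what selected them, and it is given here as a description without a test. All 6 passed the minimum of 50 UMIs over the adipocyte nuclei of both libraries that was set for the comparison with other genes.

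The data were 2 libraries, 1 per genotype, both from male mice aged 8 weeks. The control (WT) carried Srsf1 flox/flox alleles without Cre, and the knockout (KO) was Adipoq-Cre; Srsf1 flox/flox, with Cre driven by the adiponectin promoter of mature adipocytes. Both genotypes therefore carried the floxed alleles of Srsf1, a splicing factor, and the Cre transgene was present only in KO. The number of mice behind each library was not given. With 1 library per genotype there is no replicate check, no p-value is given, and all intervals are 95% intervals that cover counting error only. Genotype cannot be told apart from any other difference between the libraries.

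Brown adipocytes burn fat to make heat and are controlled by sympathetic nerves. Fgf14 encodes a fibroblast growth factor homologous factor, an intracellular protein that binds voltage-gated sodium channels in neurons. Kcnd2 encodes Kv4.2, a channel that carries fast-inactivating (A-type) potassium current. Ntrk3 encodes TrkC, the receptor for neurotrophin-3, and Ntm encodes neurotrimin, an IgLON cell adhesion protein of neurons. Gmpr encodes a guanosine monophosphate reductase, an enzyme of purine interconversion that is also known as a gene of brown fat. Cabcoco1 encodes a coiled-coil protein with a calcium-binding domain. The last 2 are not neuronal genes by their known function, so the group is called the 6 genes below.

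Regions around a start of 3 of the genes are shown because the genes differ in what these regions hold, although their UMIs were all low in KO. Each runs 5′ to 3′ on the gene's own strand over 250 bases before and 50 after a RefSeq start (build GRCm38.p6), with capitals for the motif letters found in a search of both strands. The RefSeq start of Fgf14 used here lies 485 kb inside the annotated gene, downstream of its 5′ end, so it is an internal start, and those of Ntm lie 550 kb inside. Those of Gmpr and Cabcoco1 lie at the 5′ end.
Gmpr, chr13:45507194-45507493, plus strand: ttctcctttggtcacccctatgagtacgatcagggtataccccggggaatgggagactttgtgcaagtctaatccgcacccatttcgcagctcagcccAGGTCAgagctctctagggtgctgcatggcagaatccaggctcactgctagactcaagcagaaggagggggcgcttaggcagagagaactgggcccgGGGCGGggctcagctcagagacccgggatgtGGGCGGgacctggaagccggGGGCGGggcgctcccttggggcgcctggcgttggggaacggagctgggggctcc
Fgf14, chr14:124192497-124192796, minus strand: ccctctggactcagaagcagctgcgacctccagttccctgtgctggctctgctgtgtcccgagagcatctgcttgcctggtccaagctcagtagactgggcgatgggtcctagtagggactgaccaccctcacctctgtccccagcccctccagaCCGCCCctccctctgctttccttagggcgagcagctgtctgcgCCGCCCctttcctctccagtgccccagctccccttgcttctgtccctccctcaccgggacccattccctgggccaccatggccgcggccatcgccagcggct
Cabcoco1, chr10:68541826-68542125, minus strand: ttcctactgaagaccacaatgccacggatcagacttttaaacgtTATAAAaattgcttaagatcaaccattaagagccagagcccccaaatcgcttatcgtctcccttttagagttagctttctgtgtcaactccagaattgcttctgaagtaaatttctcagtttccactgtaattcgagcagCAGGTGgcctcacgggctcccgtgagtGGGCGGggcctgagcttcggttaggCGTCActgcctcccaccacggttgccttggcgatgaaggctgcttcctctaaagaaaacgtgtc
In Gmpr the capitals mark AGGTCA, the core motif of many nuclear receptors, at position -152 from the start, and 3 copies of GGGCGG, the GC box. AGGTCA or its reverse complement TGACCT was present in 16.3% of the 32851 RefSeq promoters of this length, and in no other of the 6 promoters matched for 5 of the genes. GGGCGG or its reverse complement CCGCCC was present in 35.7% of promoters. It was found in Fgf14, Kcnd2, Cabcoco1 and Gmpr and in the second of the 2 Ntm promoters. Cabcoco1 also held TGACG (20.8% of promoters), CACCTG (20.2%) and TATAAA (13.6%), each on the strand shown or as its reverse complement. The search for AAGGTCA, AAAGGTCA, TGACGTCA and TTGCGCAA found no match in these windows. RefSeq promoter sequence was matched for Fgf14, Kcnd2, Ntm, Cabcoco1 and Gmpr, and Ntrk3 had no entry.

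The deposited matrices held 12846 WT and 11495 KO barcodes with 93102814 and 80090208 UMIs, and 12771 and 11378 nuclei were kept. The median depth was 3439.5 UMIs per barcode in WT and 4363 in KO, and 52 barcodes occurred in both libraries. Mitochondrial UMIs made up 1.10% of a WT and 0.0491% of a KO barcode at the median. Nuclei were put into classes by their UMIs of 8 markers per class, with at least 5 UMIs and at least 2 times those of the next class. The adipocyte class held 8286 WT and 3115 KO nuclei with medians of 84.5 and 70 adipocyte marker UMIs. These were 64.9% of the kept WT and 27.4% of the kept KO nuclei. The paper's clustering of both libraries together gave adipocytes a smaller share than either. Nuclei of the other WT classes also carried 5 to 8 adipocyte marker UMIs at the median, and the class therefore takes in shallow barcodes with little RNA of any type. Of the WT adipocyte class, 1595 nuclei (19.2%) lay near the limits of the call. Srsf1 itself was at 174.6 UMIs per 1000000 UMIs of the class (CPM) in WT and 61.9 in KO adipocyte nuclei, a log2 ratio of -1.50 (-1.57 to -1.42). It was nearer to equal in the immune class, at 82.7 and 65.5 CPM, a ratio of -0.34. The ratio was -0.57 (-0.82 to -0.32) in endothelial, -0.74 (-1.29 to -0.21) in mural and -0.92 (-1.04 to -0.79) in uncalled nuclei. Srsf1 counts were thus lower in KO outside the adipocyte class as well, and the part of free adipocyte RNA in this was not tested. By western blot, the paper reports SRSF1 protein as retained in KO stromal-vascular cells, a fraction without mature adipocytes.

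In adipocyte nuclei each of the 6 genes was readily counted in WT and a trace in KO. Fgf14 was at 1904 CPM in WT (1893 to 1914) from 124619 UMIs, and at 11.1 CPM in KO (9.95 to 12.4) from 325 UMIs. The KO level was 171-fold lower, which is -7.42 on the log2 scale (-7.58 to -7.26). By WT level Fgf14 was number 38 and Ntrk3 number 57 among 16828 genes. The share of WT adipocyte nuclei with at least 1 Fgf14 UMI was 86.3% (85.5 to 87.0), against 2.22% (1.73 to 2.80) in KO.

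For Kcnd2 the UMIs numbered 8996 in WT adipocyte nuclei and 23 in those of KO, which is 137 and 0.787 CPM. The log2 ratio was -7.45 (-8.11 to -6.86), and its interval holds that of Fgf14. Ntrk3 had 95685 and 755 UMIs, or 1462 and 25.8 CPM, with a log2 ratio of -5.82 (-5.93 to -5.72). Its KO level was the highest of the 6 genes and was above the 11.1 CPM of Fgf14, although Fgf14 was higher in WT.

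Ntm, with the lowest WT level of the 6, was counted 2820 times in the WT and 43 times in the KO nuclei, at 43.1 and 1.47 CPM. The ratio on the log2 scale, -4.87 (-5.34 to -4.44), was the closest to equality among the 6. Cabcoco1 had 5914 and 54 UMIs, or 90.3 and 1.85 CPM, with a log2 ratio of -5.61 (-6.03 to -5.23). Gmpr had 24695 and 107 UMIs, or 377 and 3.66 CPM, with a log2 ratio of -6.69 (-6.97 to -6.41). From the lowest ratio the order was Kcnd2, Fgf14, Gmpr, Ntrk3, Cabcoco1 and Ntm. The intervals of Kcnd2 overlap those of Fgf14 and Gmpr, those of Ntrk3 and Cabcoco1 overlap, and so do those of Cabcoco1 and Ntm.

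Among the 16828 genes tested in the adipocyte class, 17% were at least 2-fold and 3.04% at least 8-fold lower in KO, and 20.2% were at least 2-fold higher. The median log2 ratio of all of them was 0.13. The 6 genes held places 5, 6, 8, 22, 34 and 74 from the lowest ratio, in the order Kcnd2, Fgf14, Gmpr, Ntrk3, Cabcoco1 and Ntm. No result is drawn from these places, since the genes were chosen on this contrast. Just outside the group, of the 4131 genes with a WT level at or above that of Ntm, 22 had a ratio at or below its own. The other 16 included Dio2, the enzyme that activates thyroid hormone (525 to 1.33 CPM), and Erbb4, a neuregulin receptor (1544 to 47.4 CPM).

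**Figure D1:**
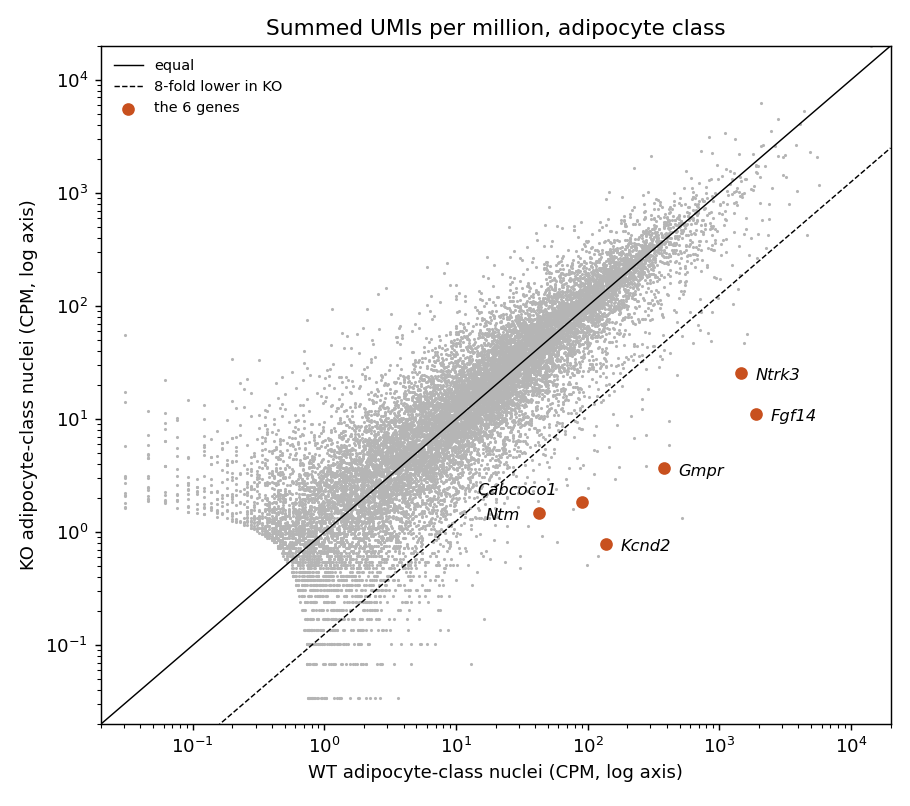
Level of each tested gene in the adipocyte class of the WT library (x axis, CPM) and of the KO library (y axis, CPM), both on log axes, with genes at 0 UMIs in either library not drawn. The 6 genes, as orange points, lie below the dashed line for 8-fold lower in KO, from Ntm at 43.1 and 1.47 CPM to Fgf14 at 1904 and 11.1 CPM.

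The genes are long, and intron reads can add to nuclear counts. Their annotated spans (GENCODE, GRCm38) were 699 kb for Fgf14 on chromosome 14, 514 kb for Kcnd2 on chromosome 6, 562 kb for Ntrk3 on chromosome 7, 968 kb for Ntm on chromosome 9, 111 kb for Cabcoco1 on chromosome 10 and 46.4 kb for Gmpr on chromosome 13. Per kb of span, the level in WT adipocyte nuclei was highest for Gmpr, at 8.14 CPM per kb. Fgf14 followed at 2.72 and Ntrk3 at 2.60 CPM per kb, then Cabcoco1 at 0.814, Kcnd2 at 0.267 and Ntm at 0.0445 CPM per kb. Gmpr, which by CPM stood behind Fgf14 and Ntrk3, was thus ahead of both by this measure.

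Most of the nearest coding genes with enough UMIs did not share the low KO levels. Itgbl1, whose end lies 2.29 kb from Fgf14, was at 14.9 CPM in WT and 37.1 in KO adipocyte nuclei, a log2 ratio of 1.31 (1.19 to 1.44). Tspan12, next to Kcnd2, had a ratio of -0.19, Mrpl46, next to Ntrk3, of 0.04, and Opcml, the IgLON gene next to Ntm, of 0.32. Arid5b, next to Cabcoco1, had a ratio of 1.46. Atxn1, which overlaps the end of Gmpr on the other strand, had a ratio of -0.57, and Mylip, on its other side, of -0.24. Tmem26, the other neighbour of Cabcoco1, had only 19 UMIs in WT and 1 in KO.

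Transcripts annotated inside Fgf14 and Ntrk3 on the other strand were low in KO as well. 1700024B18Rik, antisense within Fgf14, had 858 UMIs in WT and 2 in KO adipocyte nuclei, and Gm9885, antisense within Ntrk3, had 116 and 2. The strand setting of the count was not given in the sources used here, and whether reads of the hosts add to these antisense counts was not tested.

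Outside adipocytes the WT levels were lower, except that of Ntm in mural nuclei, and the gap between the libraries differed between the genes. Fgf14 in WT was at 134 CPM in adipose stem and progenitor cells (ASPCs). In endothelial nuclei it was at 209 CPM, in those of immune cells at 107 and in those of mural cells at 216. In KO the same classes were at 3.97, 1.76, 0.595 and 75.9 CPM. The KO level in ASPCs was below that of KO adipocytes. The adipocyte level in WT was above the immune level by 4.15 on the log2 scale for Fgf14, 3.92 for Ntrk3, 3.87 for Kcnd2, 3.52 for Ntm, 3.51 for Gmpr and 2.92 for Cabcoco1. These WT levels depend on the class rule. With marker sums scaled by the level of each list (scaled sums), an alternative added after the data had been seen, 1887 nuclei were called adipocyte and Fgf14 was at 679 CPM in WT endothelial nuclei. In KO, Fgf14 was then at 5.87 CPM in ASPCs and 3.20 CPM in adipocytes, the opposite order. As background, 9.49% of 9422 genes tested in endothelial, 9.89% of 11952 in immune, 9.43% of 11018 in ASPC and 7.99% of 4118 in mural nuclei were at least 2-fold lower in KO.

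The KO mural value of Fgf14 rested on 1 nucleus. All 38 Fgf14 UMIs of the 140 KO mural nuclei lay in it, and it also held 37 of their 118 Ntrk3 UMIs. Without this nucleus no Fgf14 UMI remained in the KO mural class. Ntrk3 was found in 15 KO mural nuclei, and 81 of its UMIs lay outside that nucleus.

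In stromal classes Ntrk3 and Ntm had higher KO levels than in KO adipocytes. Ntrk3 was at 148 CPM in WT and 49.3 in KO ASPCs, a log2 ratio of -1.59 (-1.85 to -1.32) against -5.82 in adipocytes. In mural nuclei it was at 391 and 236 CPM, a ratio of -0.73 (-1.06 to -0.41), with the 37 UMIs of that nucleus included. Both ratios depend on the class rule and on few nuclei. With scaled marker sums they were -3.16 in ASPCs and -3.53 in mural nuclei, from WT levels of 481 and 1041 CPM. Without the top nucleus of each library the mural ratio was -1.12. In KO the order of Ntrk3 by class was mural, ASPC, adipocyte (25.8 CPM), endothelial (4.41 CPM) and immune (1.85 CPM). With scaled sums mural nuclei (90.3 CPM) and ASPCs (53.9 CPM) also stood above adipocytes (28.3 CPM) in KO.

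Ntm in KO was at 34.0 CPM in mural nuclei, 7.83 in ASPCs and 1.47 in adipocytes, and at 22.2, 7.60 and 0.320 CPM with scaled sums. Its WT levels in the first 2 of these classes were 57.5 and 14.5 CPM. The mural log2 ratio of -0.76 had an interval (-1.68 to 0.11) that includes equality, and that of ASPCs was -0.89 (-1.68 to -0.01). The WT mural level was above that of adipocytes by the rule used here and below it with scaled sums, at 45.4 against 51.2 CPM.

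Gmpr in KO was at 3.66 CPM in adipocytes, below its 6.08 CPM in immune, 7.49 in endothelial and 28.0 in mural nuclei, the last from 14 UMIs. Among these KO classes it was lower than in adipocytes only in ASPCs, at 1.29 CPM. Cabcoco1 had 0 UMIs in KO ASPC, endothelial and mural nuclei. In KO endothelial nuclei 3 UMIs, the most that a count of 0 allows, would be 1.32 CPM, and the WT level was 7.73 CPM from 26 UMIs. The 28 WT nuclei of the skeletal muscle class had 125 Fgf14 UMIs and the 18 KO nuclei had 0. The 45 WT Schwann nuclei had 54 Ntrk3 UMIs (383 CPM) and the 19 KO nuclei had 0.

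**Figure D2:**
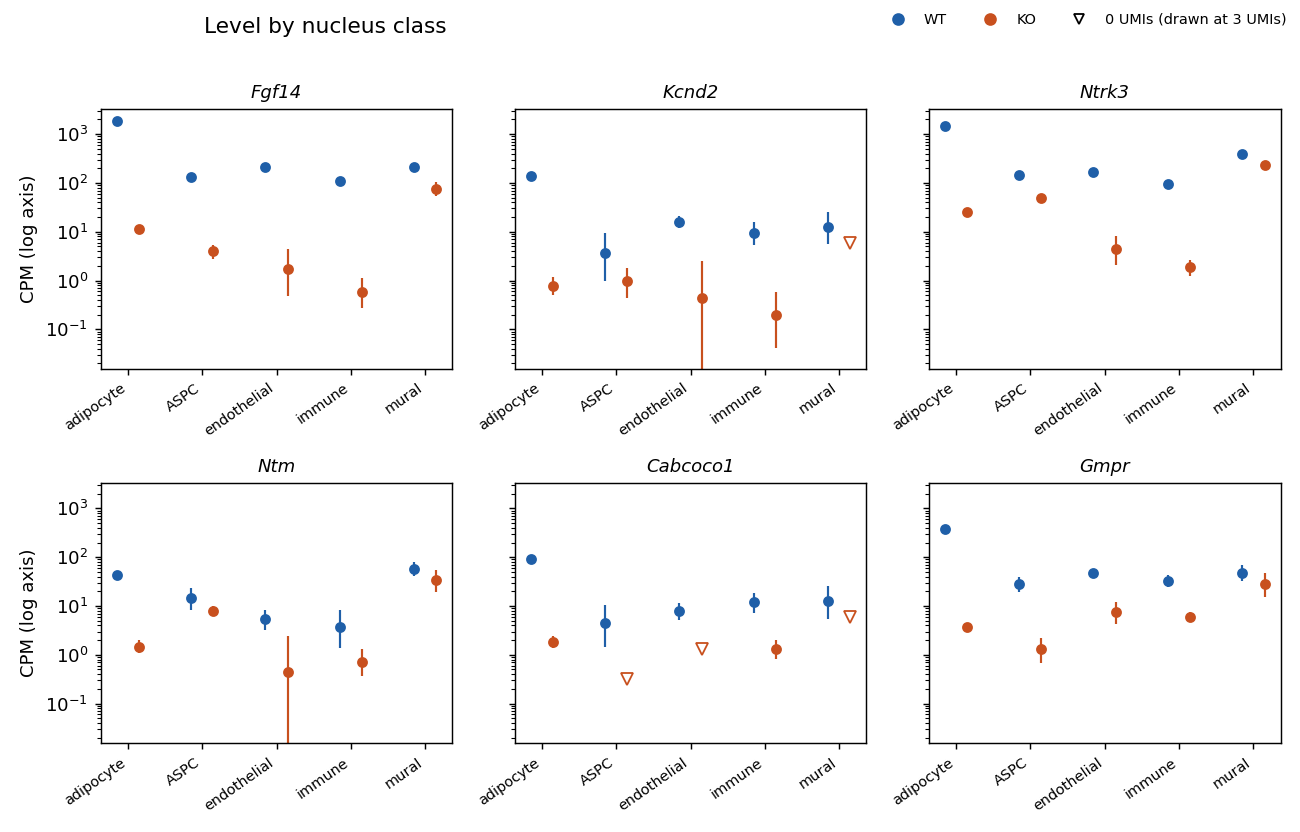
Level (y axis, CPM on a log axis) of each of the 6 genes in 5 classes of nuclei (x axis) of the WT library (blue) and the KO library (orange), with 95% counting intervals and open triangles at the level of 3 UMIs where no UMI was counted. Ntrk3 and Ntm stand at 236 and 34.0 CPM in KO mural nuclei, above their KO adipocyte levels of 25.8 and 1.47 CPM.

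Droplets can hold free RNA, so the 6 genes were set against each other within each WT class. For every 100 Fgf14 UMIs, adipocyte nuclei had 76.8 Ntrk3 UMIs (76.1 to 77.4). Endothelial nuclei had 80.5 and immune nuclei 90.1 (72.0 to 113), and barcodes of under 1000 UMIs, of which 67.4% were called adipocyte, had 78.9 (72.8 to 85.6). The intervals of these 3 sets overlap that of adipocytes. Mural nuclei had 181 (146 to 226), ASPCs 111 (88.2 to 139) and Schwann nuclei 193 (120 to 316), all above adipocytes. The 28 skeletal muscle nuclei had 55.2 (40.5 to 74.6), but 76 of their 125 Fgf14 UMIs and 36 of their 69 Ntrk3 UMIs each lay in a lone nucleus.

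For Ntm the same figure was 2.26 per 100 Fgf14 UMIs in adipocyte, 2.57 in endothelial and 3.51 in immune nuclei, against 10.8 (6.02 to 18.1) in ASPCs and 26.7 (17.9 to 38.8) in mural nuclei. These excesses depend on the class rule. With scaled sums Ntrk3 was at 80.2 in mural nuclei and 78.7 in ASPCs, and Ntm at 3.50 and 3.39. With 4 times the next class's markers Ntrk3 was at 146 and 90.9, and Ntm at 10.2 and 15.9. Kcnd2 was at 7.22, 7.70 and 8.77 per 100 Fgf14 UMIs in adipocyte, endothelial and immune nuclei, with overlapping intervals. Gmpr was at 19.8, 23.0 and 31.0, and its immune interval (22.3 to 42.4) lay above adipocytes. Cabcoco1 was at 4.75, 3.71 and 11.1. Its immune interval (6.53 to 17.9) also lay above adipocytes, but rests on 19 UMIs, 4 of them in 1 nucleus. The interval counts UMIs of the same nucleus as independent. With 4 times the next class's markers the Cabcoco1 log2 level of adipocyte over immune nuclei was 4.03, against 2.92. Ucp1, the uncoupling protein of brown fat, did not keep the adipocyte proportion in these classes. It was at 85.9 in adipocyte, 272 in endothelial and 296 in immune nuclei. Barcodes of under 1000 UMIs did not keep it either, with Ucp1 at 210 (197 to 225). The part of free RNA in these levels was not tested further.

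**Figure D3:**
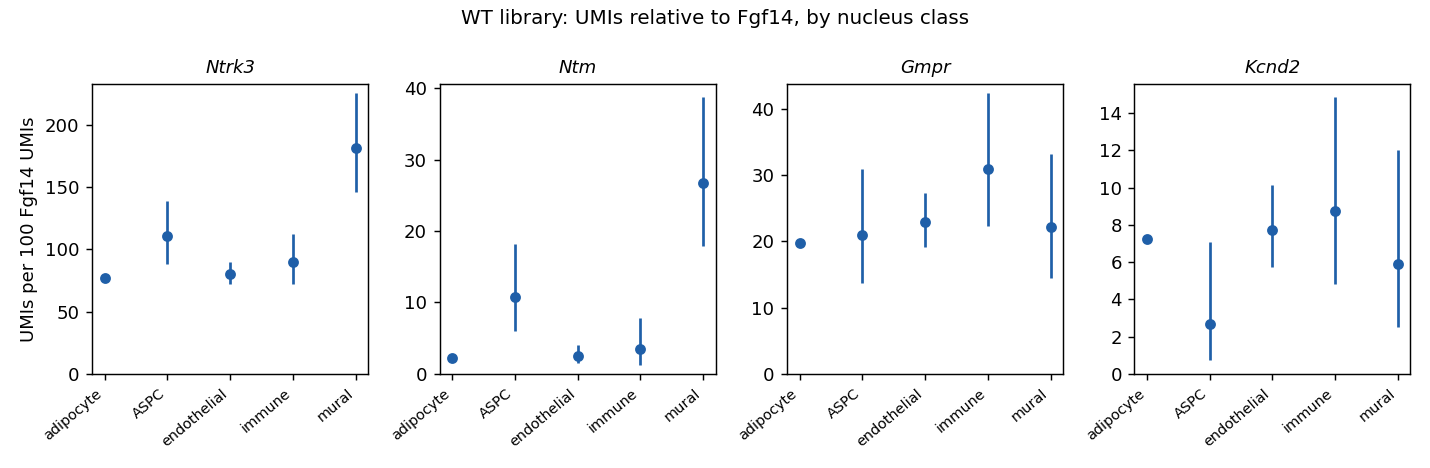
UMIs of Ntrk3, Ntm, Gmpr and Kcnd2 per 100 Fgf14 UMIs (y axes, from 0) in 5 classes of WT nuclei (x axes), with 95% counting intervals. By the class rule used here Ntrk3 is at 76.8 in adipocyte and 181 in mural nuclei and Ntm at 2.26 and 26.7, while the Kcnd2 intervals of all 5 classes overlap.

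Shallow WT barcodes carried the genes as well. In the 1720 WT barcodes under 1000 UMIs, of which 67.4% were called adipocyte, Fgf14 was at 907 CPM, Ntrk3 at 716 CPM and Gmpr at 234 CPM. The mitochondrial transcript mt-Nd2 was at 3358 CPM in these barcodes and at 571 CPM in WT barcodes of at least 16000 UMIs. The paper lists Fgf14 with mt-Nd2 as markers of a cell type it names stromal cells, which was not called as a class here. Whether nuclei of that type fall in the adipocyte class here was not tested. Fgf14 was lowest, at 597 CPM, in barcodes of 2000 to 4000 UMIs, of which 22.6% were called adipocyte, and reached 1861 CPM in those of 8000 to 16000 UMIs, of which 91.0% were. In KO it went from 1.41 CPM in the shallowest to 13.5 CPM in the deepest barcodes. Ntrk3 in KO stayed between 19.8 and 25.2 CPM at every depth. The gap between the libraries was therefore present at each depth for Fgf14, Ntrk3 and Gmpr.

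**Figure D4:**
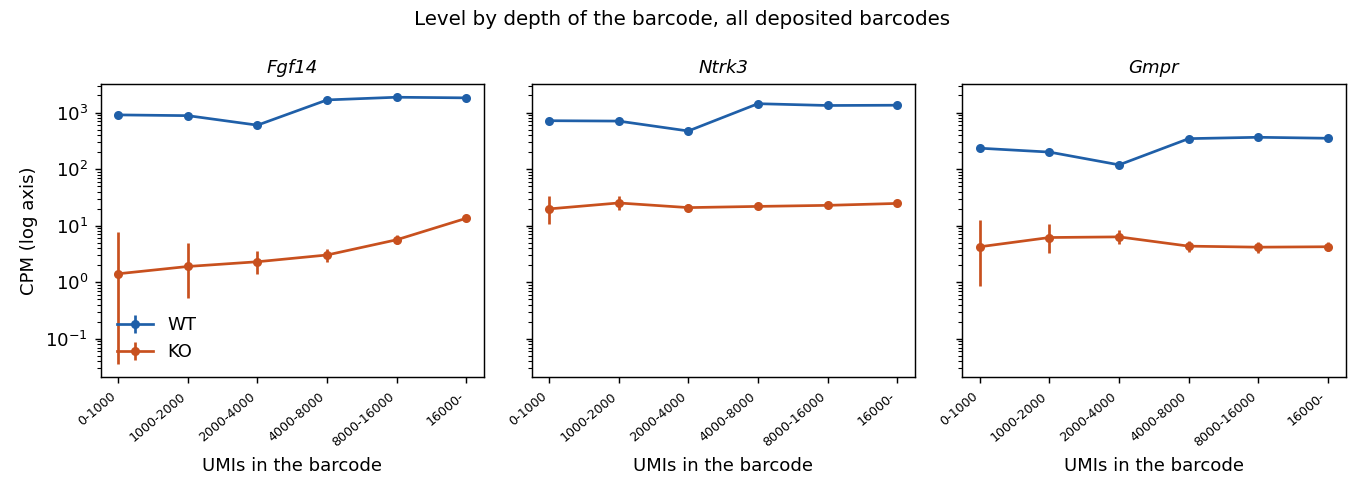
Level (y axis, CPM on a log axis) of Fgf14, Ntrk3 and Gmpr by the number of UMIs in the barcode (x axis) over all deposited barcodes of the WT library (blue) and the KO library (orange), with 95% counting intervals. In WT the level dips at 2000 to 4000 UMIs, to 597 CPM for Fgf14, and in KO all points lie below those of WT.

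With each nucleus thinned to 1000 UMIs, so that depth is equal, 72.8% of 7127 WT adipocyte nuclei held Fgf14 and 0.369% of 2984 KO adipocyte nuclei did. The share in immune nuclei, taken as the comparison class, was 10.2% in WT and 0.0703% in KO. Their median depths before thinning were 4843 and 4209 UMIs, against 6104.5 and 6673 in adipocyte nuclei. For Ntrk3 the thinned adipocyte shares were 67.6% and 2.08%, and for Gmpr 25.8% and 0.436%. Kcnd2 went from 9.65% to 0.0335%, Cabcoco1 from 7.38% to 0.0335% and Ntm from 3.75% to 0.168%. The KO immune share of Gmpr, 0.562%, was not below its KO adipocyte share, and the KO immune share of Ntrk3, 0.176%, was.

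Counted per nucleus without thinning, 236 WT adipocyte nuclei (2.85%) held UMIs of all 6 genes and 360 (4.34%) held none. In KO, 2549 adipocyte nuclei (81.8%) held none and the most genes found together in any nucleus was 3, in 7 nuclei.

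What remained of Fgf14 in KO was concentrated in few nuclei. Of 586 KO Fgf14 UMIs over 11495 barcodes, 365 (62.3%) lay in 10 barcodes, and 5 barcodes made up 50% of them. In WT the top 10 barcodes held 6.97% and 743 barcodes were needed for 50%. The highest KO nucleus had 113 Fgf14 UMIs among 50738 in all, with 1 UMI of the other genes together, which was Ntrk3, and 0 of Ucp1. Without it the KO adipocyte class kept 212 of its 325 Fgf14 UMIs. None of the 10 barcodes was shared with the WT library.

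Kcnd2 was also concentrated in KO, with 35 of 64 UMIs in 10 barcodes. Gmpr was spread, with 363 UMIs over 318 barcodes and 7.99% of them in the top 10. Ntrk3 lay between in this respect, with 1852 UMIs over 811 barcodes and 10.9% in the top 10, and 6 of these 10 were mural nuclei or ASPCs. Of the 10 KO barcodes with the most Fgf14, 6 had no UMI of the other 5 genes, and 1, the mural nucleus above, had 38 Fgf14 and 37 Ntrk3 UMIs.

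From nucleus to nucleus in WT, pairs of the genes had correlations near 0. Over 5606 WT adipocyte nuclei thinned to 2000 UMIs, with 2680 shallower nuclei left out, the Spearman correlation of the 15 pairs ran from -0.04 (Ntm with Gmpr) to 0.05 (Ntrk3 with Gmpr), with a median of 0.02. These points share 1 library and sparse counts, so such values are a description only. Fgf14 had a mean of 3.95 UMIs and a variance of 2.86 times its mean. Genes with a mean of 2 to 6 UMIs had a median of 1.63 for this ratio. Fgf14 was at 0 UMIs in 12.2% of these nuclei.

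The genes most like the sum of the 6 over these nuclei were Immp2l, a mitochondrial peptidase gene, at a Spearman correlation of 0.19, then Ppara and Ppargc1b at 0.18, Ppargc1a at 0.18 and Erbb4 at 0.17. Ppara encodes a nuclear receptor of fatty acid oxidation, and Ppargc1a and Ppargc1b encode coactivators of mitochondrial genes. The lowest were Nav1 at -0.17, Slit3 at -0.15 and Elmo1 at -0.15. The 6 genes differed in this. Ntrk3 had 0.23 with Ppara and 0.21 with Ppargc1a, and Gmpr had 0.18 with Ppargc1a. Fgf14 had 0.02 with Ppargc1a and Ntm had -0.04.

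A split of the same nuclei by Ppargc1a restates these correlations as levels and is not a second observation. In the 360 thinned WT nuclei with no Ppargc1a UMI, Gmpr was at 206 CPM, and in the 611 with the most Ppargc1a UMIs (at least 23) at 626 CPM. Ntrk3 was at 1093 and 2030 CPM. Fgf14 was at 2068 (1964 to 2176) and 2005 (1926 to 2086) CPM, with overlapping intervals. Cabcoco1 was at 58.3 and 104 CPM. Kcnd2, at 115 and 160 CPM, and Ntm, at 48.6 and 30.3 CPM, had overlapping intervals.

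The 6 genes also differed between WT adipocyte nuclei with and without RNA of white adipocyte genes. The split, chosen after the values had been seen, took the 109 thinned WT nuclei with at least 2 UMIs of Lep, the hormone leptin, and Slc7a10, an amino acid transporter of white adipocytes, together. It set them against the 5274 with none. Fgf14 was at 2349 CPM (2150 to 2561) in the former and 1967 CPM (1940 to 1994) in the latter. Ntm was at 59.6 and 41.7 CPM with overlapping intervals. Neither of these 2 genes was lower in nuclei with Lep and Slc7a10.

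Gmpr, in contrast, was at 73.4 CPM (42.0 to 119) against 403 CPM (391 to 416) in nuclei without Lep or Slc7a10. Ntrk3 was at 463 against 1596 CPM, Kcnd2 at 36.7 against 146 CPM and Cabcoco1 at 18.3, from 4 UMIs, against 95.4 CPM. Ucp1 was at 500 against 1792 CPM, and Ppargc1a at 1197 against 5049 CPM. Srsf1 was at 170 CPM (120 to 234) against 187 CPM (179 to 195), with overlapping intervals.

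The differences were smaller when WT nuclei were split by the whole list of 6 white adipocyte genes, with 215 nuclei of at least 3 UMIs against 3575 with none. Gmpr was then at 240 against 388 CPM, Ntrk3 at 751 against 1595 CPM, Kcnd2 at 69.8 against 145 CPM and Cabcoco1 at 60.5 against 91.0 CPM. Fgf14 was at 2158 against 1979 CPM and Ntm at 58.1 against 42.8 CPM.

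In KO, 250 thinned adipocyte nuclei had at least 2 UMIs of Lep and Slc7a10 together. Slc7a10 was at 1098 CPM in them and at 1252 CPM in the WT nuclei split the same way. These 2 values follow from the split, which requires such UMIs, and do not show that the nuclei match. Over the whole adipocyte class Slc7a10 was at 41.9 CPM in WT and 134 CPM in KO. Fgf14 in the 250 KO nuclei was at 32.0 CPM (18.3 to 52.0), from 16 UMIs with at most 4 in 1 nucleus, against 2349 CPM in WT. The low KO values restate how Fgf14 was chosen. Fgf14 in the 2209 KO nuclei without Lep or Slc7a10 was at 4.30 CPM (2.59 to 6.72).

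**Figure D5:**
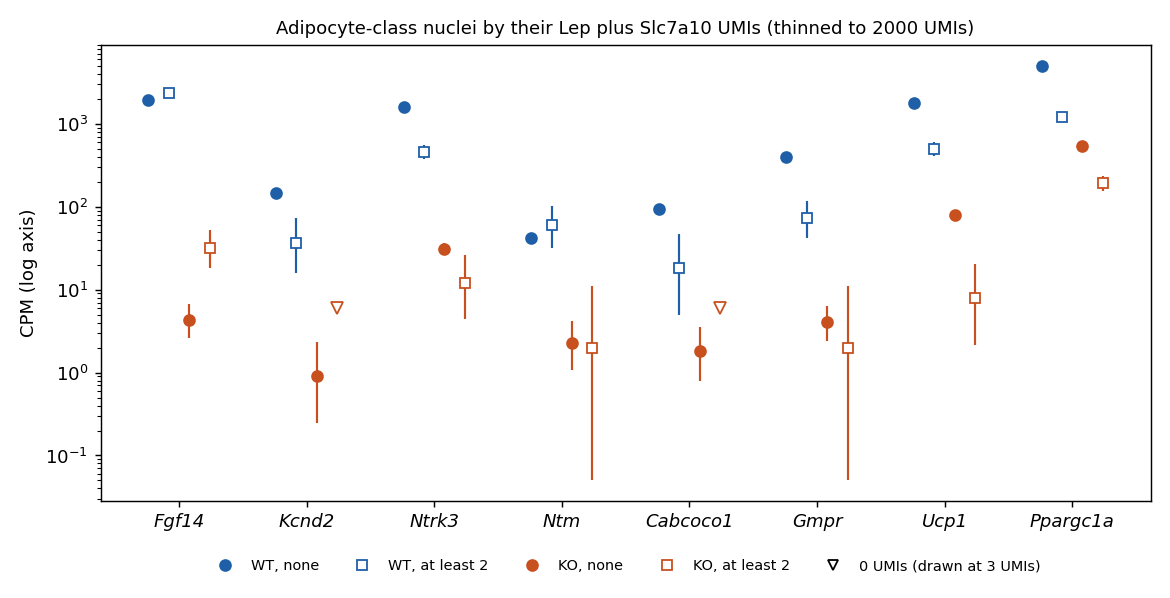
Level (y axis, CPM on a log axis) of the 6 genes, Ucp1 and Ppargc1a (x axis) in thinned adipocyte nuclei of the WT (blue) and KO (orange) libraries, with no UMI of Lep or Slc7a10 (filled circles) or at least 2 (open squares), with 95% counting intervals. WT Fgf14 is at 2349 CPM with and 1967 CPM without these UMIs, and WT Gmpr at 73.4 and 403 CPM.

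Relatives of the 6 genes were counted in lists drawn up by function. The counts are set beside the 17% of all genes at least 2-fold lower and the 20.2% at least 2-fold higher in KO, and a share near these is no result about a list. Of the other 3 fibroblast growth factor homologous factors, Fgf13 was higher in KO adipocyte nuclei, at 7.47 CPM in WT and 43.5 in KO (log2 ratio 2.54), and Fgf11 and Fgf12 were lower, from 2.44 and 2.75 CPM to 0.685 and 0.856 CPM. Fgf13 in KO was thus above Fgf14 in KO (11.1 CPM), and both lay far below the WT level of Fgf14.

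Of the 6 measured sodium channel genes, partners of these factors in neurons, 4 were at least 2-fold higher and 1 was at least 2-fold lower in KO, with a median log2 ratio of 1.29 against 0.13 for all genes. Their levels were low, and Scn2a, for example, went from 2.15 to 11.1 CPM. Among 9 measured A-type potassium channel genes and their partners, none was at least 2-fold lower and 2 were at least 2-fold higher. The list is too small to set these counts apart from the 17% and 20.2% of all genes. Kcnd3, a paralog of Kcnd2, was at 6.83 and 5.58 CPM (-0.29).

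Of 7 measured neurotrophin genes and receptors, 2 were at least 2-fold lower, a count too small to set apart from the 17% of all genes. Ntrk2, the receptor of brain-derived neurotrophic factor, went from 222 to 70.7 CPM (-1.65), and Ntf3, which encodes the ligand of TrkC, was at 23.8 and 19.3 CPM (-0.30). Among the 4 other IgLON genes 1 was at least 2-fold lower, Lsamp, from 30.7 to 7.43 CPM, again not apart from 17%. Negr1, at 1838 and 1155 CPM, had a ratio of -0.67.

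Of 18 other genes of purine interconversion, none was at least 2-fold lower against 17% of all genes, and 4 were at least 2-fold higher, near the 20.2% of all genes, with a median log2 ratio of 0.08. Xdh, xanthine dehydrogenase, went from 183 to 922 CPM (2.33), and Gda, guanine deaminase, from 64.6 to 278 CPM (2.10). Gmpr2, the paralog of Gmpr, was at 6.58 and 5.51 CPM (-0.26).

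Of the 12 thermogenic genes, 10 were at least 2-fold lower, with a median log2 ratio of -2.95, and Ucp1 went from 1635 to 57.0 CPM. Of the 6 white adipocyte genes, 2 were at least 2-fold higher, Lep (2.45) and Slc7a10 (1.68), and 2 were lower, Mest (-1.77) and Aspg (-1.69).

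Markers of neurons were near 0 in the adipocyte class. The 8 neuron markers summed to 5.03 CPM in WT and 3.29 CPM in KO adipocyte nuclei, and Th, the enzyme of noradrenaline synthesis, had 0 UMIs in both. The sums of the 8 Schwann cell markers were 212 and 203 CPM. The sums of mural and of skeletal muscle markers were 187 and 62.0 CPM in WT and 102 and 23.1 CPM in KO. These sums were below the WT levels of Fgf14 and Ntrk3 in the same nuclei. A marker sum does not give the level of another gene in the cells it marks. The part of RNA from such cells in the values of Fgf14, Ntrk3, Ntm, Cabcoco1, Kcnd2 and Gmpr was not tested.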

How the data were processed

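Nuclei of BAT were sequenced with the 10x 3′ kit. The deposited values are raw UMI counts per gene and barcode, 1 matrix per library, which the authors made by aligning reads to GRCm38 (mm10) and counting with Cell Ranger (5.0.0 in the file headers, while the methods name an earlier version). The submitters' processing notes also name Seurat 3.1.1. Whether intronic reads were counted was not given in the sources used here. Nuclei with at least 200 genes, at most 10% mitochondrial UMIs and log depth within 3 median absolute deviations were kept, and doublets were not called. UMIs were summed per class and divided by the class total (CPM), with exact Poisson, conditional binomial and Clopper-Pearson intervals. A count of 0 was given a floor of 3 UMIs. Thinning drew UMIs without replacement. No test was run, since each genotype is 1 library. The members and lists were chosen with earlier results of these data known. Named were the 6 genes, list members (paralogs and the largest WT levels), the 5 highest and 3 lowest correlations among genes in at least 5% of nuclei, neighbouring genes and Srsf1. Dio2, Erbb4 and the splits by Lep and Slc7a10, by the white adipocyte list and by Ppargc1a were added after values were seen. Python 3.11.15, numpy 2.4.6, scipy 1.17.1, pandas 2.3.3 and matplotlib 3.10.9 were used with GENCODE release 21 and RefSeq promoters. The scripts were tested on simulated data.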

Additional observations from a re-analysis of the deposited data

How the results depend on the processing

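No KO to WT ratio listed here changed its direction under the alternatives run for it. Orders between classes did change with scaled sums for Ntm in WT (mural against adipocyte) and Fgf14 in KO (ASPC against adipocyte). The splits of adipocyte nuclei by other genes were not rerun under these settings. No paired analysis was possible because the labels carry no replicate numbers and each genotype is 1 library. Counts limit Ntm and Kcnd2 most, with 43 and 23 UMIs in KO adipocyte nuclei. Subtracting the immune level gave no value for Gmpr, whose KO adipocyte level was below it, and thinning gave none for Ntm in WT immune nuclei, at 0 UMIs. The causes of the shifts below were not tested.

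The log2 ratio of KO to WT in adipocyte nuclei was -7.42 for Fgf14, and became -7.22 without the filter on barcodes, -7.98 as a mean over nuclei, -8.10 with nuclei thinned to 1000 UMIs, -9.41 with scaled marker sums and -8.03 without the top nucleus. For Kcnd2 it became -6.03 as a mean over nuclei and -8.96 with scaled sums. For Ntrk3 it became -5.66 as a mean over nuclei, -5.94 thinned and -5.95 after centring on the median ratio. For Ntm it became -7.32 with scaled sums and -5.72 with the immune level subtracted. For Cabcoco1 it became -5.16 as a mean over nuclei, -7.94 thinned and -7.22 with the immune level subtracted. For Gmpr it became -6.33 thinned and -7.27 with scaled sums, and in endothelial nuclei -4.30 with scaled sums.

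The log2 level of adipocyte over immune nuclei in WT was 3.61 for Fgf14 as a mean over nuclei and 2.86 with scaled sums. It was 3.08 and 3.03 for Kcnd2 (thinned, scaled sums), and 3.53, 3.63 and 2.63 for Ntrk3 (mean over nuclei, thinned, scaled sums). It was 5.28 for Ntm and 4.03 for Cabcoco1 with 4 times the next class's markers, and 3.08 and 2.72 for Gmpr (thinned, scaled sums).

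For Ntrk3 the log2 ratio of KO to WT became -1.20 in ASPCs and -0.22 in mural nuclei with 4 times the next class's markers, -3.16 and -3.53 with scaled sums, and -1.12 in mural nuclei without the top nucleus. Per 100 Fgf14 UMIs in WT, Ntrk3 became 78.7 in ASPCs and 80.2 in mural nuclei with scaled sums and 146 in mural nuclei with 4 times the markers. Ntm became 3.39 and 3.50 with scaled sums and 10.2 in mural nuclei with 4 times the markers. Scaled sums, all alternatives for values per 100 Fgf14 UMIs, the minimum of 4000 UMIs and leaving out the top nucleus were chosen after seeing the data.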
